A study of Mus musculus with 46 samples.

Results

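Immediate early genes are genes that a cell transcribes within minutes of a stimulus, before it makes any new protein. A set of 10 was followed in microglia, the resident macrophages of the brain: Fos, Fosb, Jun, Junb, Jund, Egr1, Atf3, Ier2, Dusp1 and Zfp36. They were taken by symbol from a table of raw read counts with 54134 gene symbols, without regard to their values. All 10 were found, and 9 passed the filter on low counts that left 12121 genes for testing. Fosb did not pass. The 46 libraries came from microglia of wild-type mice (WT, 22 libraries) or 5xFAD mice (labelled AD, 24 libraries), a model of Alzheimer's disease that carries mutated human transgenes, among them APP, under the neuronal Thy1 promoter. Diets were zero fiber, control or HAMSAB, the last a maize starch rich in amylose that carries acetate and butyrate. Each of the 6 diet-by-genotype groups had 8 libraries, 4 from females and 4 from males, except zero fiber WT, which had 6, with 4 from females and 2 from males. Age, background strain, length of feeding and the method of isolation are not in the labels, nor is it stated whether libraries are from separate mice. The p-values therefore measure the spread between these libraries, part of which may be technical.

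Fos and Fosb proteins pair with Jun, Junb or Jund through leucine zippers to form AP-1, a transcription factor. Their genes are switched on by serum response factor, CREB and the mitogen-activated protein (MAP) kinases, and their transcripts are short-lived. In microglia, tissue dissociation and warming are known to induce the same genes, so they are often read as a mark of handling during cell isolation. Bulk RNA cannot tell fewer expressing cells from less RNA per cell.

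Library totals lay between 52114 and 6950429 counts (median 2344837.5). The 2 lowest were 52114 in zero_fiber_AD_M replicate 2 and 783849 in zero_fiber_AD_M replicate 1. Libraries are named by diet, genotype, sex and a number that follows deposit order and pairs nothing. The library labelled zero_fiber_AD_F replicate 1 went against its sex label, with 1 read of the female-specific RNA Xist and 666 reads of the Y-linked gene Ddx3y, against 1587 or more and 47 or fewer in the other 3 of its group. This library and zero_fiber_AD_M replicate 2 are called the doubted libraries below. Title numbers of the libraries fall into a series below 2900 and a series from 2900 on, which the labels do not call batches. HAMSAB_AD_F replicate 4 has only zeros as its title number and was placed in neither series. It was left out of the values by title series and of the fits with a title series term. The 8 microglial markers, among them P2ry12, Tmem119 and Cx3cr1, were all tested, and summed to between 23800 and 38300 CPM over the libraries (reads scaled to the TMM-adjusted library size), with no marker at 0 in any group. Lymphocyte markers summed to at most 1.31 CPM. The 6 monocyte and neutrophil markers summed to between 0 and 25.9 CPM (median 9.95). Among them Ccr2 had 636 reads and Plac8 468, while Ly6g was at 0 in every library.

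The promoters of the AP-1 genes at the centre of the results are shown as the 250 bases before the start of transcription in RefSeq, 5′ to 3′ (GRCm38.p6, whose promoter table held 8 of the 10 genes). For Junb and Jund the bases after the RefSeq start were not found in a GENCODE transcript. GENCODE starts Junb at 84978718, downstream of the RefSeq start, and Jund at 70698949, downstream of the end of the Jund window at 70697738. Jun is shown as the member that differed between diets, Junb as its close relative that did not pass any test, and Fos as the AP-1 partner at the other end of the expression range. Jun lies on the minus strand at chr4:95052223-95052472, Junb on the minus strand at chr8:84978749-84978998, and Fos on the plus strand at chr12:85473640-85473889. Capitals mark matches on either strand to the 8 motifs searched.
Jun: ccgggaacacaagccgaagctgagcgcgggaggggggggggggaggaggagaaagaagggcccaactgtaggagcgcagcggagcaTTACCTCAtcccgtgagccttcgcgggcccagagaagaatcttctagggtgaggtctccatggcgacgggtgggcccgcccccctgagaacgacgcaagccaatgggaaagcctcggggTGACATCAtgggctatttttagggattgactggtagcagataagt
Junb: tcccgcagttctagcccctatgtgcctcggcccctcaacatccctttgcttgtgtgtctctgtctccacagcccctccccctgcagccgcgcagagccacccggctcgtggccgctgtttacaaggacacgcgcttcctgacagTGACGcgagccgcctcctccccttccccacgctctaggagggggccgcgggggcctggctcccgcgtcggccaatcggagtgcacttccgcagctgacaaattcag
Fos: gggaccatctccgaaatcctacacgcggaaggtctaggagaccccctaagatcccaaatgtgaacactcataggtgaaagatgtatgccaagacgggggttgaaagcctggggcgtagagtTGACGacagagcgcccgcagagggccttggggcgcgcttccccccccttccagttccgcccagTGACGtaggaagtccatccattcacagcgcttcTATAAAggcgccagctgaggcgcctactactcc
The Jun window held TGACATCA and TTACCTCA, the pair of AP-1-like elements by which Jun protein is known to act on its own promoter. They began 45 and 164 bases before the start, and were found in 2.93% and 0.728% of 32851 RefSeq promoters of the same length. TGACG, the core of the CRE bound by CREB and its relatives, was held by 5 of the 8 members (Fos, Fosb, Junb, Atf3 and Dusp1) and by 17.8% of all promoters. The full CRE TGACGTCA, which contains that core, occurred in Dusp1 alone of the 8 (1.55% of all promoters), the CArG box of serum response factor in Zfp36 alone (1.47%), and the Egr site GCGNGGGCG in Fosb and Zfp36 (4.7%). The TATA box TATAAA was in the Fos window (12.4%), and the AP-1 site TGANTCA was in none of the 8 (6.75%). A match describes letters in this window only.

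Expression of the members spanned a wide range. Levels between genes are compared as mean CPM over the 46 libraries divided by exon length, in CPM per kilobase, where the median tested gene stood at 6.05. Junb stood at 102, Jun at 55.3, Zfp36 at 37.7 and Jund at 24.5 CPM per kilobase, above 96.5%, 92.7%, 89% and 83.3% of tested genes. Atf3 (6.65), Ier2 (4.69) and Egr1 (3.67) lay near or below the middle, above 52.8%, 43% and 36% of tested genes. Dusp1 stood at 1.2 and Fos at 0.632 CPM per kilobase, above 12.5% and 4.93%. The Jun genes and Zfp36 were thus abundant in every group, and Fos was near the limit of detection.

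Fos, the founding Fos gene (chromosome 12, 85473890 to 85477273, 4 exons), had 184 reads over all 46 libraries (95% Poisson interval 158 to 213, counting error only) and was at 0 in 6 of them. Fosb, its relative (chromosome 7, 19302696 to 19310051), had 14 reads in all (7.65 to 23.5) and was at 0 in 38 libraries. In CPM, Fos ran from 0.456 to 2.39 with a median of 0.63 in zero fiber WT, and from 0 to 10.3 with a median of 1.06 in control WT. It ran from 0.569 to 3.4 (median 1.19) in HAMSAB WT and from 0 to 1.92 (median 1.01) in zero fiber AD. It ran from 0.583 to 8.06 (median 1.3) in control AD and from 0 to 1.94 (median 1.09) in HAMSAB AD. All 6 groups overlapped. Single libraries, control_WT_F replicate 2 and control_AD_M replicate 3, gave the 10.3 and 8.06 CPM, against at most 2.53 and 3.06 CPM in the rest of their groups. The biological coefficient of variation of Fos, its spread between libraries of a group beyond counting error, was 0.641 and exceeded that of 99% of tested genes.

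Jun, the AP-1 subunit encoded by a single exon (chromosome 4, 95049034 to 95052222, minus strand), had 20577 reads. In WT mice its CPM ran from 167 to 273 (median 187) on zero fiber, from 147 to 242 (median 178) on control diet and from 102 to 194 (median 143) on HAMSAB. In AD mice it ran from 140 to 226 (median 174) on zero fiber, from 131 to 262 (median 209) on control diet and from 134 to 173 (median 149) on HAMSAB. Both HAMSAB groups had lower medians than the other 4, and HAMSAB AD also had the narrowest range, but both overlapped with every other group. Over both genotypes, 14 of 16 HAMSAB libraries were below 185 CPM, the median of the 30 others, and 12 of those 30 were above the highest HAMSAB library. An antisense gene, Junos, overlaps Jun and had 112 reads, and the strand setting of the counting is not given in the sources used here.

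Junb, which can replace Jun in AP-1 with weaker activity (chromosome 8, 84974484 to 84978718), had 27317 reads. In WT mice it ran from 202 to 302 CPM (median 221) on zero fiber, from 189 to 304 (median 213) on control diet and from 182 to 283 (median 247) on HAMSAB. In AD mice it ran from 139 to 325 CPM (median 245) on zero fiber, from 161 to 328 (median 213) on control diet and from 189 to 273 (median 241) on HAMSAB. The 6 ranges overlapped almost fully. Prdx2, on the opposite strand, overlaps Junb and had 8468 reads, so some reads may belong to either. The number of Jun reads per Junb read needs no scaling between libraries. Its median was 0.851, 0.837 and 0.593 in WT mice on zero fiber, control and HAMSAB diet, and 0.744, 0.794 and 0.615 in AD mice. The HAMSAB AD libraries lay between 0.544 and 0.791, none above 1, whereas 1 to 3 libraries of each other group were above 1.

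Jund, the AP-1 subunit expressed most steadily in resting cells (chromosome 8, 70698949 to 70700616), was lowest by median in zero fiber WT, at 24.2 to 53.5 CPM (median 31.8). It was highest in HAMSAB WT, at 38.3 to 58.7 CPM (median 48.2). The medians of the other 4 groups were 40.9 in control WT, 37.6 in zero fiber AD, 37 in control AD and 35 in HAMSAB AD, with single libraries between 21 and 62.9 CPM. All groups overlapped.

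**Figure D1:**
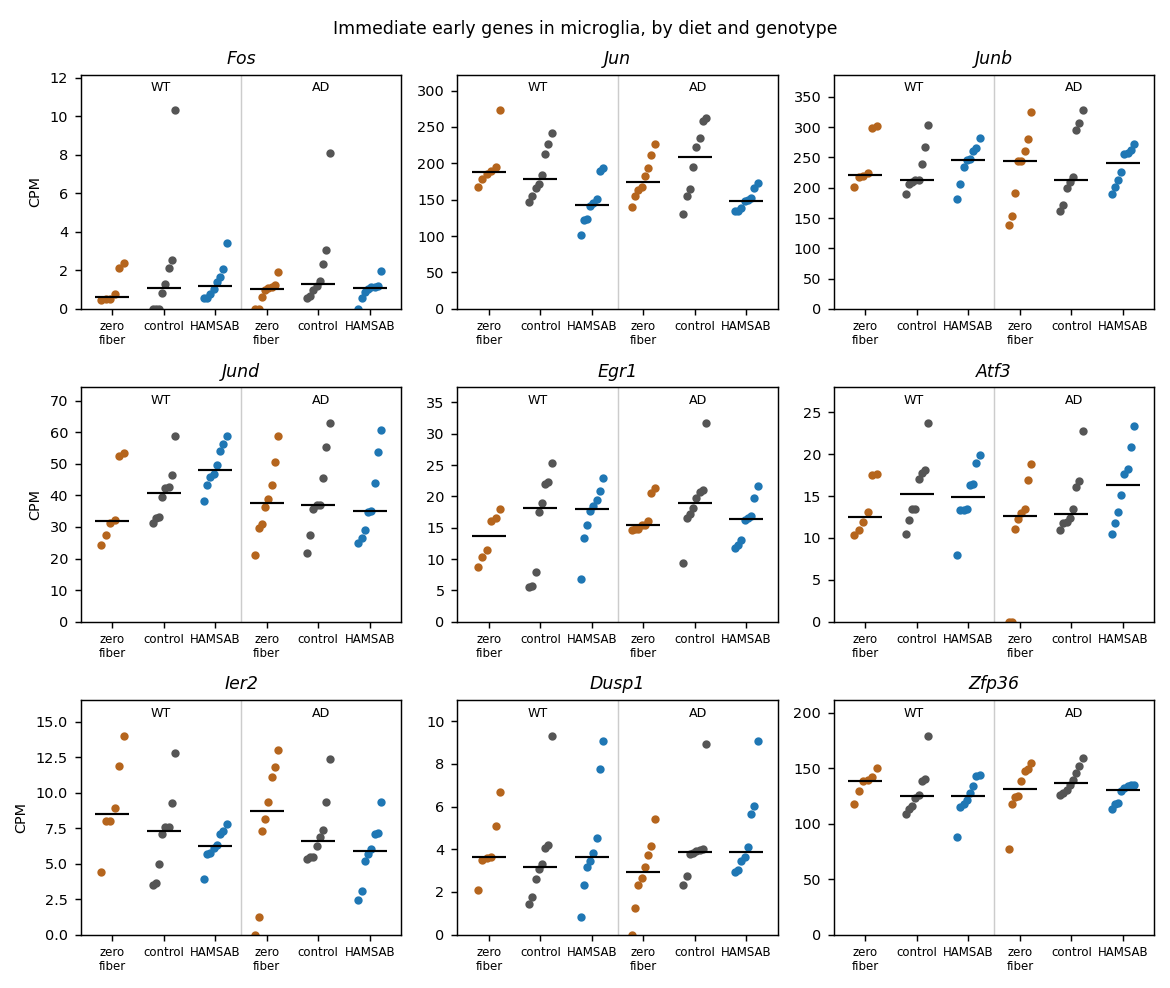
CPM of the 9 tested immediate early genes (vertical axes, linear and from 0) in the 46 libraries, by diet and genotype; each point is 1 library and each line a group median. Jun is lower in both HAMSAB groups (medians 143 and 149 CPM) than in the other 4 (174 to 209 CPM), with overlap, and the other 8 genes overlap across all groups.

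Egr1, a zinc-finger transcription factor, had medians from 13.7 CPM in zero fiber WT to 18.9 in control AD. Single libraries ran from 5.59 CPM in control_WT_M replicate 1 to 31.7 CPM in control_AD_M replicate 3. Atf3, a stress-induced member of the ATF/CREB family (chromosome 1, 191170296 to 191218039), had medians from 12.5 CPM in zero fiber WT to 16.3 CPM in HAMSAB AD. It was at 0 in the 2 shallow libraries, zero_fiber_AD_M replicates 1 and 2, and between 7.97 and 23.7 CPM in all others. By the limit of 3 counts, 0 reads allow up to 3.7 CPM in replicate 1 and 46.4 CPM in replicate 2, for counting error only. Ier2, a nuclear protein of early growth response (chromosome 8, 84661331 to 84662852), had medians from 5.86 CPM in HAMSAB AD to 8.75 CPM in zero fiber AD.

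The remaining pair act to end the response. Dusp1, a phosphatase that inactivates MAP kinases (chromosome 17, 26505590 to 26562128), had medians from 2.93 CPM in zero fiber AD to 3.88 CPM in control AD, and its median of 8 reads per library limits precision. Ergic1 overlaps it on the opposite strand with 7259 reads. Zfp36, which encodes tristetraprolin, a protein that speeds the decay of AU-rich cytokine transcripts (chromosome 7, 28376784 to 28380253), had medians from 124 CPM in HAMSAB WT to 139 CPM in zero fiber WT. Its biological coefficient of variation was 0.122, lower than that of most genes (above 14.6% of those tested), and that of Jun and Junb was 0.175 and 0.176, near the middle. No 2 of the 6 groups were apart for any of these 5 genes.

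Whether any member differed among the 6 groups was tested with edgeR's quasi-likelihood F test in 1 fit to the 46 libraries, using a mean per group and sex and Benjamini-Hochberg adjustment over the 12121 genes. A gene with an adjusted p under 0.05 is called. Jun was called (adjusted p = 0.0261) and the other 8 members were not (adjusted p from 0.443 for Ier2 to 0.998 for Junb). Of all tested genes, 4.36% were called and 18.8% had an unadjusted p under 0.05. The Jun call was also made by DESeq2 (adjusted p = 0.00805) and limma voom (0.0315), with the title series as a term (0.0388) and without the doubted libraries (0.0205). It was lost without HAMSAB_WT_F replicate 1 (0.0664), HAMSAB_WT_M replicate 1 (0.0596) or HAMSAB_WT_M replicate 2 (0.0566), and held without each of the 43 others.

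The diets were then compared within each genotype, and Jun was lower on HAMSAB in each of these comparisons without reaching the threshold. In log2 units, given ± the standard error (SE), HAMSAB against zero fiber gave -0.29 ± 0.13 in AD (adjusted p = 0.429) and -0.45 ± 0.14 in WT (0.0873). HAMSAB against control gave -0.45 ± 0.13 in AD (0.0831) and -0.39 ± 0.13 in WT (0.142). The comparisons that share a HAMSAB group, or a genotype's other diet, share those libraries and are not independent. Zero fiber against control gave -0.16 ± 0.13 in AD and 0.06 ± 0.14 in WT for Jun. The HAMSAB against control value in AD passed the threshold when control_AD_M replicate 4, the lowest control AD library at 131 CPM, was left out (adjusted p = 0.0434). With no filter on low counts, 3 of the 4 HAMSAB comparisons passed for Jun (adjusted p = 0.00988 against control in AD, 0.0191 against zero fiber in WT and 0.0232 against control in WT). In that fit the adjusted p of Jun in the test among the 6 groups was also lower, at 0.000135 against 0.0261. The share of all genes called in that fit is not given here, so these 3 calls have no background beside them.

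Because the direction was the same in both genotypes, the diets were also compared over both together, a comparison added after the values were seen. Jun fell on HAMSAB by 0.42 ± 0.09 on the log2 scale against control (SE, 16 libraries each, adjusted p = 0.00646, 0.748 times the control level). In this comparison 1 of 9 members was called, where 4.52% of all genes were called and 22% had an unadjusted p under 0.05. The call held without each of the 32 libraries in turn. Against zero fiber it fell by 0.37 ± 0.10 (16 and 14 libraries, adjusted p = 0.0411, 0.775 times the zero fiber level), again the called member of 9, where 1.02% of all genes were called and 13.3% had an unadjusted p under 0.05. This call ended with the title series as a term (adjusted p = 0.0546), in a fit that leaves out HAMSAB_AD_F replicate 4. It also ended without that library alone, and held in 12 of 30 fits that each left out 1 library. The highest adjusted p was 0.123, without zero_fiber_WT_M replicate 2, and the fold change stayed between -0.40 and -0.32. Zero fiber against control over both genotypes gave -0.05 ± 0.10 for Jun and no called member, where 0.363% of genes were called and 13.1% had an unadjusted p under 0.05, which no member had.

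Junb, by contrast, gave 0.04 ± 0.09 for HAMSAB against control and 0.00 ± 0.10 against zero fiber, with approximate 95% intervals of -0.14 to 0.22 and -0.19 to 0.19. Zfp36 gave -0.11 ± 0.07 and -0.10 ± 0.07 (adjusted p = 0.353 and 0.572). Fos gave -0.64 ± 0.45 and 0.11 ± 0.52, with errors too wide at its depth to show a change of the size seen in Jun. Ier2 gave -0.22 ± 0.19 against control and -0.56 ± 0.20 against zero fiber (adjusted p = 0.537 and 0.185). As a difference of mean log2 CPM, Ier2 against zero fiber was 0.44 below title number 2900, -0.96 from 2900 on and -0.20 in all libraries. An unadjusted p under 0.05 was reached by 2 of 9 members against zero fiber (Jun and Ier2) and by 1 against control (Jun). Beside them stood 13.3% and 22% of all genes. The median over the 9 tested members was -0.05 against control and 0.11 against zero fiber, beside 0.00 and 0.01 over all tested genes. The members did not move as a block.

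**Figure D2:**
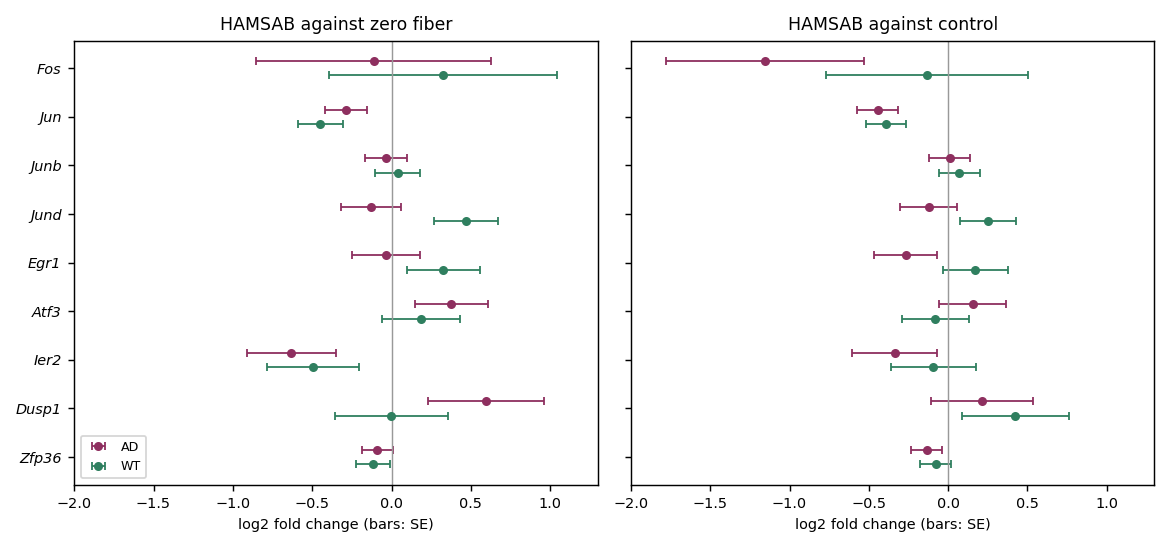
Log2 fold change (horizontal axis, bars are the SE) of 9 immediate early genes on HAMSAB against zero fiber (left) and control (right), in AD and WT mice, from the edgeR fit. The 4 Jun values lie between -0.45 and -0.29, Junb lies between -0.04 and 0.07, and Fos has the widest bars.

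Within each title series Jun kept its direction, in plain differences of means that are not balanced for genotype or sex. Below 2900, control had 1 WT and 4 AD libraries, beside 5 and 5 on HAMSAB. From 2900 on, control had 7 WT and 4 AD libraries, beside 3 and 2 on HAMSAB. The mean log2 CPM on HAMSAB minus that on control was -0.52 below 2900 (10 and 5 libraries) and -0.33 from 2900 on (5 and 11), and -0.39 in all libraries. Minus zero fiber it was -0.33 (10 and 8) and -0.37 (5 and 6), and -0.34 in all. By sex, HAMSAB minus control was -0.53 in females and -0.25 in males, and HAMSAB minus zero fiber was -0.51 and -0.17. The HAMSAB WT females stood at 102, 122, 124 and 141 CPM, below all 8 WT females of the other diets, which ran from 166 to 273 CPM. The HAMSAB WT males stood at 145, 151, 189 and 194 CPM, overlapping with the 147 to 227 CPM of control WT males. Whether the effect of diet on Jun differs between the sexes was not tested.

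**Figure D3:**
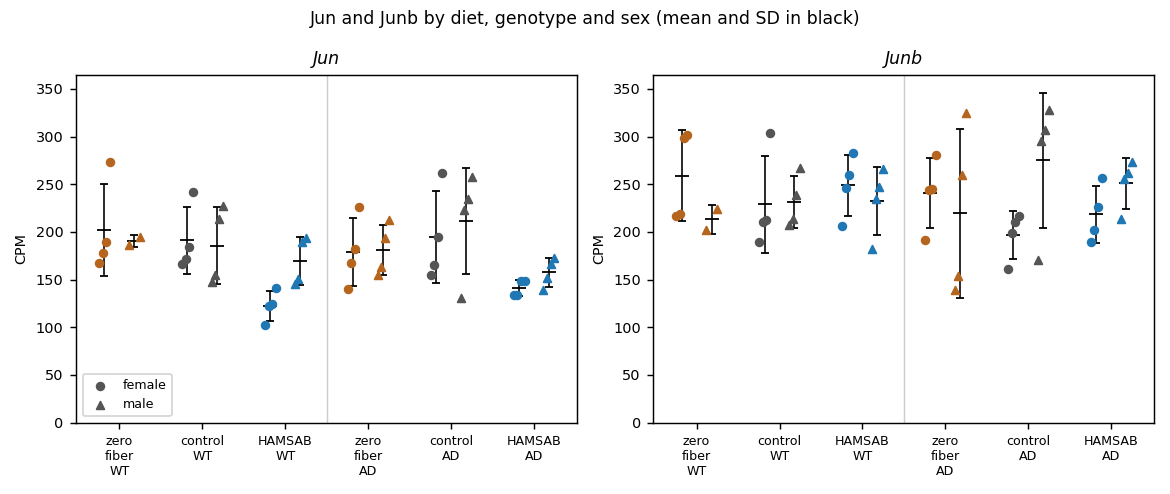
CPM of Jun (left) and Junb (right) in each library, by diet and genotype, with females as circles and males as triangles (the library labelled zero_fiber_AD_F replicate 1 is drawn by its label); black bars are mean and SD. The 4 HAMSAB WT females lie between 102 and 141 CPM of Jun, and Junb shows no such gap.

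RNA of other cell types also differed between diets, and its part in the Jun difference was not tested. The 5 erythroid genes, mostly haemoglobin, summed to medians of 121 and 132 CPM on zero fiber (WT and AD, ranges 65.6 to 684 and 21.6 to 423), of 50.3 and 15.5 on control diet (24.8 to 103 and 1.97 to 136) and of 34.6 and 16.5 on HAMSAB (8.88 to 140 and 1.7 to 157). All 4 tested haemoglobin genes differed among the groups, and all 4 were called lower on HAMSAB than on zero fiber over both genotypes, of which Hba-a2 was not called by DESeq2 (adjusted p = 0.0945) or without the doubted libraries (0.0797). All 4 were also called higher on zero fiber than on control over both genotypes (edgeR adjusted p = 0.00262 each). For HAMSAB against control over both genotypes, where Jun was called, 0 of the 4 had an unadjusted p under 0.05. The 8 perivascular macrophage genes summed to medians of 65.6, 43.9 and 52.5 CPM in WT mice on zero fiber, control and HAMSAB diet, and of 63.3, 68.1 and 34.6 CPM in AD mice, with none at 0 in any group and single libraries between 19.8 and 162 CPM. Of these, F13a1 and Pf4 were called among the 6 groups by edgeR, but not by voom (adjusted p = 0.0543 and 0.0553) or with the title series term (0.0907 and 0.058). Both calls also ended without HAMSAB_AD_F replicate 4 alone, which the fit with that term leaves out. In HAMSAB against control in AD, all 7 tested had an unadjusted p under 0.05, beside 15.3% of all genes. There, 0 were called by edgeR or DESeq2 and 1 by voom. For the genotype difference of that response all 7 again had such a p, beside 5.53% of all genes, and 0 were called. Over both genotypes, Mrc1 was called lower on HAMSAB against zero fiber (edgeR adjusted p = 0.0392), the 1 called of 7, beside 1.02% of all genes. That call held in 11 of 30 fits that each left out 1 library (highest adjusted p = 0.123). It ended without the doubted libraries (0.0915). The 7 neuronal genes summed to medians of 14.8, 10.3 and 14.5 CPM in WT mice and 14, 9.07 and 13.1 CPM in AD mice in the same order, within 2.81 to 32.3 CPM, with Syt1 called among the 6 groups. Syt1, a synaptic vesicle protein with 360 reads, was called higher on HAMSAB against control over both genotypes, the comparison in which Jun fell, by log2 1.83 ± 0.49 (adjusted p = 0.0125, and 0.0629 with the title series term). It was also called higher on zero fiber against control, by 2.02 ± 0.50 (0.0232, and 0.0785 with that term, 0.184 under voom and 0.0927 without the doubted libraries), where Jun gave -0.05 ± 0.10. Over the 46 libraries, astrocyte genes summed to 155 to 382 CPM, oligodendrocyte genes to 77 to 178 and endothelial genes to 15.5 to 122. Slc1a3 alone made up most of the astrocyte sum, with a mean of 248 CPM. The rest of that list ran from 0.233 CPM for Gfap to 9.24 for Slc1a2. Pecam1 alone made up most of the endothelial sum, at 61.3 CPM, and the rest ran from 0.0241 for Cldn5 to 8 for Kdr. The summed microglial markers had medians between 29800 and 32800 CPM in the 6 groups, and none of the 8 was called.

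The remaining members with an unadjusted p under 0.05 in some comparison were Ier2 and Jund. For HAMSAB against zero fiber in AD, 2 of 9 members (Ier2 and Jun) had such a p, beside 10.6% of all genes, and 0 were called by edgeR, DESeq2 or voom, beside 0.239% of genes. Ier2 gave -0.63 ± 0.28 (adjusted p = 0.393), and -0.35 without zero_fiber_AD_M replicate 4. Its direction differed between the title series, at 0.94 below 2900 and -0.76 from 2900 on as a difference of mean log2 CPM, and it was at 0 reads in zero_fiber_AD_M replicate 2 and at 1.23 CPM in replicate 1. For HAMSAB against zero fiber in WT, 2 members (Jun and Jund) had such a p, beside 12% of genes, and 0 were called by any of the 3 tools, beside 2.19% of genes. Jund gave 0.47 ± 0.20 (adjusted p = 0.294). Against control, 1 member (Jun) had such a p in AD, beside 15.3% of genes, and 1 (Jun) in WT, beside 13.3%. None was called by the 3 tools in either, beside 0.0743% and 0.281% of genes. Zero fiber against control gave no member with such a p in AD (10.8% of genes) or WT (7.58%), and none called by the 3 tools (0.0578% and 0.00825% of genes).

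Genotype showed no called member. AD against WT gave 0 members on zero fiber (0.00825% of all genes), on control diet (0% of all genes) and on HAMSAB (1.68%), by edgeR, DESeq2 and voom alike. An unadjusted p under 0.05 was reached by 0 members on zero fiber (4.7% of genes), 0 on control diet (5.4%) and 1 on HAMSAB (12%). That member was Jund, at -0.41 ± 0.18 in AD against WT (adjusted p = 0.308). As a difference of mean log2 CPM it was -0.82 in females and 0.04 in males. Jun gave -0.11 ± 0.14, 0.11 ± 0.13 and 0.05 ± 0.13 for AD against WT on the 3 diets.

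The effect of diet was also compared between genotypes, as an interaction. For HAMSAB against zero fiber, 0 members were called by the 3 tools (1.08% of genes) and 1 had an unadjusted p under 0.05 (9.46% of genes). This was Jund, at -0.60 ± 0.28 (AD minus WT, adjusted p = 0.455). For HAMSAB against control, 0 were called and 0 had such a p (0% and 5.53% of genes), and for zero fiber against control likewise 0 and 0 (0% and 6.17%). For Jun, the genotypes differed by 0.16 ± 0.19 in the response to HAMSAB against zero fiber and by -0.05 ± 0.18 against control, with approximate 95% intervals of -0.22 to 0.54 and -0.40 to 0.30. Males against females gave 0 called members by the 3 tools (0.124% of genes) and 0 with an unadjusted p under 0.05 (10.5%). The values ran from -0.18 for Egr1 to 0.12 for Jun.

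Other genes of the same response were read from lists of related genes. Of 21 tested genes among 31 other immediate early genes, 0 were called by edgeR in the test among the 6 groups and 7 had an unadjusted p under 0.05 (beside 4.36% and 18.8% of all genes), while DESeq2 and voom each called 1. Against zero fiber over both genotypes, Egr2, a relative of Egr1, rose on HAMSAB by log2 1.42 ± 0.39 (adjusted p = 0.0299), and Trib1, a pseudokinase adaptor of protein degradation, fell by 0.45 ± 0.11 (0.0318). These were the 2 called of 21, beside 1.02% of all genes. Both calls ended with the title series term (adjusted p = 0.0539 and 0.0543), that of Egr2 also under voom (0.111), and they held in 24 and 19 of 30 fits that each left out 1 library (highest adjusted p = 0.126 and 0.147). Both also ended without HAMSAB_AD_F replicate 4 alone, which the fit with that term leaves out. The Egr2 value rests on 331 reads and moved most, to 2.41, without zero_fiber_AD_M replicate 3. Against control, Ier5, a relative of Ier2, fell by 0.40 ± 0.10 (0.0157) and Rhob, a small GTPase, by 0.39 ± 0.11 (0.0258). These were again 2 called of 21, beside 4.52% of all genes. The Ier5 call held without each of the 32 libraries, and the Rhob call ended without HAMSAB_WT_M replicate 2 (adjusted p = 0.059), control_AD_F replicate 2 (0.0612) or control_AD_M replicate 1 (0.0605). The list medians were -0.04 and -0.01, beside 0.01 and 0.00 over all tested genes. Members of this list that neurons are known to induce with activity differed widely in depth, with 3 reads of Npas4, 7 of Arc, 37 of Nr4a2 and 153 of Nr4a1 over the 46 libraries, none of which passed the filter, and 354 of Egr3 and 1111 of Homer1, which were tested.

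Of 9 tested AP-1 relatives such as Fosl2 and Atf4, 0 were called by edgeR in any comparison. HAMSAB against control over both genotypes gave 2 of 9 with an unadjusted p under 0.05, beside 22% of all genes, 0 called by DESeq2 and 1 by voom. Of 23 upstream genes of the SRF, CREB and MAP kinase pathways, Rps6ka1, the kinase RSK1, was called among the 6 groups and lower on HAMSAB against control over both genotypes, by 0.28 ± 0.07 (adjusted p = 0.0127, and 0.0516 with the title series term, which also ended the first call at 0.0573). The first call also ended without HAMSAB_AD_F replicate 4 alone, which the fit with that term leaves out. Rps6ka1 was the 1 called of 23 in each comparison, beside 4.36% and 4.52% of all genes. Of 14 tested feedback phosphatases and decay factors, Dusp7 fell on HAMSAB against control over both genotypes by 0.61 ± 0.14 (0.00925). It was the 1 called of 14, beside 4.52% of all genes. Dusp3 rose on HAMSAB against zero fiber in WT by 1.26 ± 0.27 (0.0104), the 1 called of 14, beside 2.19% of all genes. That call ended without zero_fiber_WT_M replicate 1 (0.0913) or replicate 2 (0.139). The genotypes differed in that Dusp3 response by -1.49 ± 0.36 (0.0274), again the 1 called of 14, beside 1.08% of all genes. This call held in 22 of 30 fits that each left out 1 library (highest adjusted p = 0.16). Of 8 tested AU-rich cytokine transcripts, the class that Zfp36 acts on, Ccl4, a chemokine, rose on HAMSAB against zero fiber over both genotypes by 0.95 ± 0.19 (0.0045, and 0.0562 without zero_fiber_WT_M replicate 2), while the value of Zfp36 was -0.10 ± 0.07. Ccl4 was the 1 called of 8, beside 1.02% of all genes. Of 12 tested heat shock genes, which also respond to handling, 0 were called by edgeR in any comparison, and 10 of the 12 were lower on HAMSAB against control over both genotypes (median -0.16, beside 0.00 over all tested genes), with 4 at an unadjusted p under 0.05, beside 22% of all genes, and 0 called by DESeq2 or voom, where edgeR called 4.52% of all genes. Of 9 tested glucocorticoid-responsive genes, Cebpd was called lower on HAMSAB against zero fiber in WT, by 0.61 ± 0.14 (0.0119). It was the 1 called of 9, beside 2.19% of all genes. That call ended without zero_fiber_WT_M replicate 1 (0.166) or replicate 2 (0.0656). Over both genotypes Cebpd was also called lower against zero fiber, by 0.40 ± 0.09 (0.0216, where 1.02% of all genes were called). This held in 29 of 30 fits that each left out 1 library. Its call among the 6 groups (0.017) held in 45 of 46 such fits, and its call against control (0.0483) in 10 of 32.

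Whether the members rose and fell together between libraries was asked inside the groups, by correlating log2 CPM after subtracting each group's mean over the 45 libraries with at least 500000 counts. Of the 36 pairs of the 9 tested members, 28 had a positive Pearson r, with a median of 0.19. None passed after Benjamini-Hochberg adjustment (two-sided permutation within groups, 100000 draws), by r or by Spearman's rho, and 7 had an unadjusted p under 0.05. The 7 were Jun with Egr1 (r = 0.52, rho = 0.46, permutation p = 0.00419 and 0.00502), Fos with Zfp36 (0.47), Junb with Ier2 (0.47), Jund with Atf3 (0.47), Fos with Jun (0.43), Jun with Zfp36 (0.39) and Egr1 with Zfp36 (0.39). All 7 had an adjusted permutation p of 0.126 for r. Leaving out the 2 libraries farthest from the median of the first gene of a pair left r at 0.37 for Jun with Egr1, 0.39 for Fos with Jun, 0.34 for Fos with Zfp36 and 0.27 for Jund with Atf3. It left 0.56 for Jun with Zfp36 and 0.48 for Egr1 with Zfp36, which then passed (adjusted permutation p = 0.0193 each). In the same step Junb with Ier2 dropped to 0.18, so that relation rests on those libraries. The r of Jun with Junb was -0.24 (permutation p = 0.215), and that of Jun with Ier2 was -0.28 (permutation p = 0.0835).

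A single shallow library weighed on several pairs. Without zero_fiber_AD_M replicate 1, where Atf3 was at 0, r changed from 0.40 to -0.28 for Atf3 with Ier2, from 0.35 to -0.16 for Junb with Atf3 and from 0.47 to 0.27 for Jund with Atf3. The pair Jun and Egr1 held at 0.53. Within the title series, Jun with Egr1 had r of 0.03 below 2900 (22 libraries) and 0.77 from 2900 on. Whether the series differ in this relation was not tested. Fos with Jun had 0.67 and 0.56, and Fos with Zfp36 had 0.56 and 0.68.

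**Figure D4:**
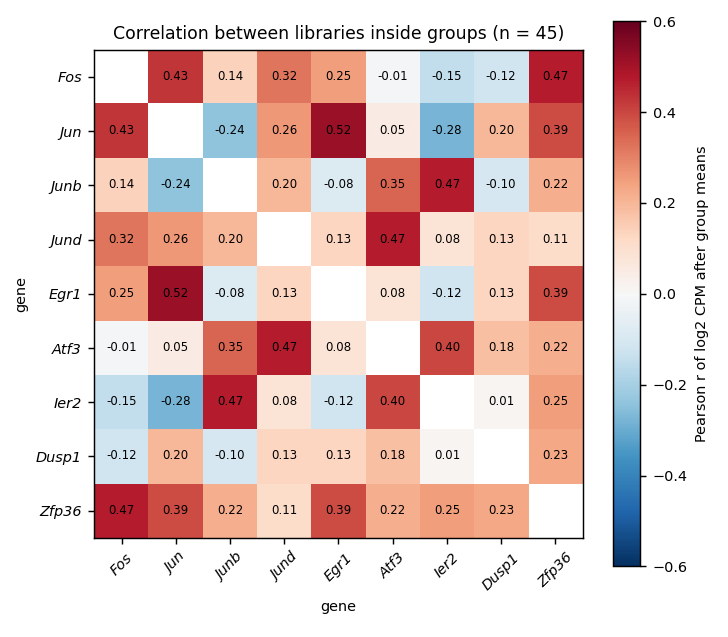
Pearson r of log2 CPM between pairs of the 9 tested immediate early genes (both axes) over 45 libraries, after subtracting each group's mean; colour runs from blue (negative) to red (positive). The highest value is 0.52, for Jun with Egr1, and the lowest is -0.28, for Jun with Ier2.

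The genes whose level between libraries was most like that of each member were sought among all tested genes whose mean log2 CPM was 1 or more. For Jun this was Trib1 (r = 0.67 over 45 libraries, 0.70 without zero_fiber_AD_M replicate 1), the gene that also fell on HAMSAB against zero fiber. For Junb it was Pgpep1 (0.76), for Jund Cpsf4 (0.81), for Egr1 Prc1 (0.59), for Ier2 Arhgdia (0.70), for Dusp1 Gbp5 (0.65), for Zfp36 Hist2h3c2 (0.56) and for Fos Ccdc157 (0.66). For Atf3 it was Paqr4 at 0.81, which dropped to 0.40 without zero_fiber_AD_M replicate 1. The 10 genes nearest to the mean of the 9 members were Gpr146 (0.72), Fam149a, Paqr4, Irf8, Ctdspl, Edn1, Zfp747, Cmtr1, Nup210 and Lpl (0.63). Without that library their r ran from 0.29 for Zfp747 to 0.58 for Nup210. These values are the highest of many and describe these libraries.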

How the data were processed

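Raw read counts per gene symbol for 46 libraries were deposited by the authors as 1 table. STAR 2.5.2b, featureCounts 1.5.2 and the builds mm10 and GRCm38 are named per the submitters' processing notes, while no source used here states the annotation release, strand setting or treatment of shared reads. Per the labels' protocols, RNA was extracted on a QIAcube with the RNeasy Micro kit. The members and gene lists were chosen with earlier results of these data known.

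Genes kept by filterByExpr (12121) were fitted in 1 edgeR 4.0.16 quasi-likelihood model (R 4.3.3) with 12 group means and TMM factors of 0.918 to 1.25, and sexes were weighted equally. CPM values use the same factors, and log2 CPM a prior count of 2. DESeq2 1.42.0 and limma 3.58.1 were alternatives. Correlations used numpy 2.4.6. The design named 45 pairs, and 36 were possible because Fosb did not pass the filter. All members were to be named, with fold changes for those called or with an unadjusted p under 0.05, and up to 4 called genes of each other list. Coordinates and exon lengths are from GENCODE M21 (GRCm38). The fit was tested on simulated data. Alternatives were DESeq2 size factors, no filter, other tests, a title series term, a fit limited to the groups in question, and fits without each library in turn or the doubted pair. Chosen after the data were seen were the comparisons over both genotypes and an edgeR fit after removal of exon-length trends per library. A gene of the AP-1 relatives is not reported here.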

Additional observations from a re-analysis of the deposited data

Results flagged for a closer look

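Each member's log2 CPM values in a group were tested for 1 library far from the rest. The measure was the gap to its nearest neighbour as a share of the group's range. Among 54 groups of values, 7 stood out, where about 2.7 are set by chance at 1 in 20. The values below are given in CPM, on which the shares differ from those on the log2 scale. Jun stood at 273 CPM in zero_fiber_WT_F replicate 1, against 195 for the next library of the zero fiber WT group. In HAMSAB WT, 4 genes had a low library: Egr1 at 6.83 CPM in HAMSAB_WT_F replicate 2 (15 reads), Atf3 at 7.97 CPM in HAMSAB_WT_F replicate 3 (14 reads), Ier2 at 3.89 CPM in HAMSAB_WT_F replicate 4 (7 reads) and Zfp36 at 88.2 CPM in HAMSAB_WT_M replicate 1 (153 reads). These are 4 different libraries. Dusp1 stood at 8.93 CPM in control_AD_F replicate 4 (13 reads), against 4.02 for the next. Zfp36 stood at 77.3 CPM in zero_fiber_AD_M replicate 2, which rests on 5 reads.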

How the results depend on the processing

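The fold changes of Jun, Ier2 and Jund that had an unadjusted p under 0.05 kept their sign in each refit, while that of Ier2 differed in sign between the title series, and several pair correlations changed sign without zero_fiber_AD_M replicate 1, as given in the report. Beside the Jun calls given in the report, the number of members called moved from 0 to 1 with no filter on low counts in HAMSAB against control in AD and in WT and against zero fiber in WT, and from 1 to 0 with the title series term in HAMSAB against zero fiber over both genotypes (the cause was not tested). The fit with that term leaves out HAMSAB_AD_F replicate 4, and this call also ended without that library alone. Leaving out 1 library at a time gave 0 to 1 called members in HAMSAB against control in AD, in the test among the 6 groups and in HAMSAB against zero fiber over both genotypes. The last held without zero_fiber_AD_F replicates 1 and 4, zero_fiber_AD_M replicates 2 and 3, zero_fiber_WT_F replicates 2, 3 and 4, HAMSAB_AD_M replicates 1 and 2, HAMSAB_WT_F replicate 4, or HAMSAB_WT_M replicates 3 and 4. The number of passing pairs moved from 0 to 2 without the 2 libraries farthest from the median, and stayed 0 under the other alternatives. No paired analysis was possible because the replicate numbers follow deposit order and pair no libraries. Depth limits Fos, Fosb and Dusp1 most, with medians of 3, 0 and 8 reads per library.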
